A study of Rattus norvegicus with 6 samples.

Results

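The microRNAs (miRNAs) of the vessel wall were examined in the rat hypothalamic arcuate nucleus (ARC): miR-143 and miR-145, which are typical of smooth muscle, and miR-126, which is typical of endothelium. Rows were chosen by name, as every arm of the hairpins miR-143, miR-145, miR-126a and miR-126b. The 562 mature miRNAs listed held 6 such rows, namely rno-miR-143-3p, rno-miR-143-5p, rno-miR-145-5p, rno-miR-145-3p, rno-miR-126a-3p and rno-miR-126a-5p, written without the rat prefix from here on, and 0 rows named miR-126b. Small RNA of the ARC was sequenced in 3 libraries from sham-operated and 3 libraries from CCI-ION rats, all Sprague-Dawley and 8 to 10 weeks old. CCI-ION is a chronic constriction injury of the left infraorbital nerve, a branch of the trigeminal nerve, by loose silk ligatures. In sham rats the nerve was exposed on one side and not ligated, and tissue of both groups was taken on Day 14. The study counts more rats than libraries for each group, and how rats were assigned to libraries is not given in the sources used here. Libraries may therefore be pools, n counts libraries throughout, and the spread between them may be partly technical. miR-143-3p and miR-145-5p are on the list of raised ARC miRNAs that the study picked from these same libraries, so their rise here is not independent evidence of that direction. The study also measured conserved miRNAs of its list by qPCR in the ARC. Its primers include miR-145-5p but not miR-143-3p, and the qPCR values are not used here.

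miR-143 and miR-145 are made from one primary transcript and are abundant in vascular smooth muscle cells, pericytes and some fibroblasts, where they promote the contractile state. miR-145-5p represses factors such as KLF4 and KLF5 that hold smooth muscle in an immature state. miR-126 lies within the gene Egfl7, which encodes a protein secreted by endothelium, and miR-126-3p supports the response of endothelial cells to vascular endothelial growth factor. Each hairpin gives 2 mature miRNAs, one from its 5p arm and one from its 3p arm, of which usually one is kept and the other is degraded.

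The mature sequences of the 6 members are shown because base pairing of the seed (bases 2 to 8, in capitals) sets which transcripts a miRNA can bind, and because the arms are compared below. They are RefSeq sequences of assembly GRCr8, written 5′ to 3′, and each member was matched by its miRNA name.
miR-143-3p: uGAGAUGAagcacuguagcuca
miR-143-5p: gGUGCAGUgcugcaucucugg
miR-145-5p: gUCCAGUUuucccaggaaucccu
miR-145-3p: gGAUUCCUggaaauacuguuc
miR-126a-3p: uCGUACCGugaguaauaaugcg
miR-126a-5p: cAUUAUUAcuuuugguacgcg

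No seed was shared between any of the 6, and 0 of the other listed miRNAs with a RefSeq sequence had the seed of any of them, where 512 of the 562 names had one. In the RefSeq gene table Mir143 and Mir145 are the nearest miRNA genes to each other on chromosome 18, and both lie within the long noncoding RNA gene Carmn. The miR-126a arms lie within Egfl7 on chromosome 3. They are filed there under the gene symbol Mir126b, with miR-126b under Mir126a on the opposite strand. The miR-126b sequence, which has no row of values here, is shown for its complementarity, with the bases in capitals that pair without a gap to miR-126a-5p.
miR-126b: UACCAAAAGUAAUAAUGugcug
This run is 17 bases long.

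Values are given as normalized counts, that is, reads over a library's size factor. Taking the smallest value of each library as 5 reads, which is inferred from the spacing of the values, the 6 libraries held between 8628309 and 14313839 reads, the fewest in CCI-ION replicates 2 and 3. Of the 555 miRNAs tested with limma, 38 (6.85%) passed an adjusted p of 0.05 after Benjamini-Hochberg adjustment, 19 of them higher in CCI-ION rats (3.42%) and 19 lower. Groups did not overlap for 40.7% of the miRNAs tested. With 3 libraries against 3, an exact permutation test of a single value cannot give a two-sided p below 0.1. In tissue, more cells of a type and more RNA per cell cannot be told apart.

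The main arms of both smooth muscle miRNAs rose in CCI-ION rats. miR-143-3p, the main arm of its hairpin, stood at 32179, 40854 and 47797 normalized counts across sham replicates 1 to 3, against 77023, 89533 and 91863 across CCI-ION replicates 1 to 3. The lowest CCI-ION library exceeded the highest sham library. The mean went from 40277 ± 7825 to 86140 ± 7981 (SD, n = 3 each), which is 2.14-fold. On the log2 scale the change was 1.11 with a 95% interval of 0.66 to 1.56 (limma, SE = 0.18, adjusted p = 0.0334). It was the member with the largest fold change and ranked 27 in abundance over all libraries. The call held without CCI-ION replicate 1 (limma adjusted p = 0.0495) and was lost with any other library left out (0.0566 to 0.127), with log2 fold changes of 0.96 to 1.24.

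miR-145-5p, the main arm of the neighbouring hairpin, stood at 2611, 2279 and 3283 normalized counts across sham replicates 1 to 3 and at 4659.5, 5110.5 and 4772 across CCI-ION replicates 1 to 3. Again the groups did not overlap. The mean went from 2724 ± 512 to 4847 ± 235 (SD, n = 3 each), which is 1.78-fold. On the log2 scale this was 0.85 with a 95% interval of 0.44 to 1.25 (limma, SE = 0.16, adjusted p = 0.045). The call was lost whichever library was left out, where limma gave adjusted p of 0.068 to 0.144, and under upper-quartile scaling (log2 fold change 0.59, limma adjusted p = 0.0603).

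The minor arms of the smooth muscle hairpins did not pass the threshold. miR-143-5p is rare, at 107, 98.9 and 136 normalized counts across sham replicates 1 to 3 and 158, 133 and 289 across CCI-ION replicates 1 to 3. CCI-ION replicate 3 stood high and CCI-ION replicate 2 lay within the sham range. The log2 difference between groups was 0.69 (limma, SE = 0.32, adjusted p = 0.195), and 0.36 without CCI-ION replicate 3. On the inferred read scale, between 94 and 268 reads lay behind each value, a counting error of 6.11% to 10.3%. miR-145-3p stood at 591, 529.6 and 663 normalized counts across sham replicates 1 to 3 and at 613, 611 and 713 across CCI-ION replicates 1 to 3. The groups overlapped, and the log2 difference was 0.12 with a 95% interval of -0.22 to 0.46 (limma, SE = 0.14, adjusted p = 0.557). It was 0.04 without sham replicate 2, 0.05 without CCI-ION replicate 3 and 0.20 without sham replicate 3, and its sign changed to -0.14 under upper-quartile scaling.

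Of the endothelial hairpin, neither arm passed the threshold, and the arms differed in sign. miR-126a-3p was the most abundant member in sham rats, at 44395, 50622 and 53916 normalized counts across replicates 1 to 3, against 69196, 70573 and 62453 across CCI-ION replicates 1 to 3. The groups did not overlap, but the distance between them was smaller than for miR-143-3p. The mean went from 49644 ± 4835 to 67407 ± 4346 (SD, n = 3 each), which is 1.36-fold. The log2 difference of 0.44 with a 95% interval of 0.13 to 0.76 stayed outside the threshold (limma, SE = 0.13, adjusted p = 0.0877). miR-126a-5p stood at 1047, 644 and 938 normalized counts across sham replicates 1 to 3 and at 622, 237 and 643 across CCI-ION replicates 1 to 3. The highest CCI-ION library and the lowest sham library nearly met, and CCI-ION replicate 2 lay far below the others, on an inferred 195 reads. The log2 difference was -0.91 with a 95% interval of -2.02 to 0.20 and did not pass (limma, SE = 0.45, adjusted p = 0.205). It was -0.44 without CCI-ION replicate 2.

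**Figure D1:**
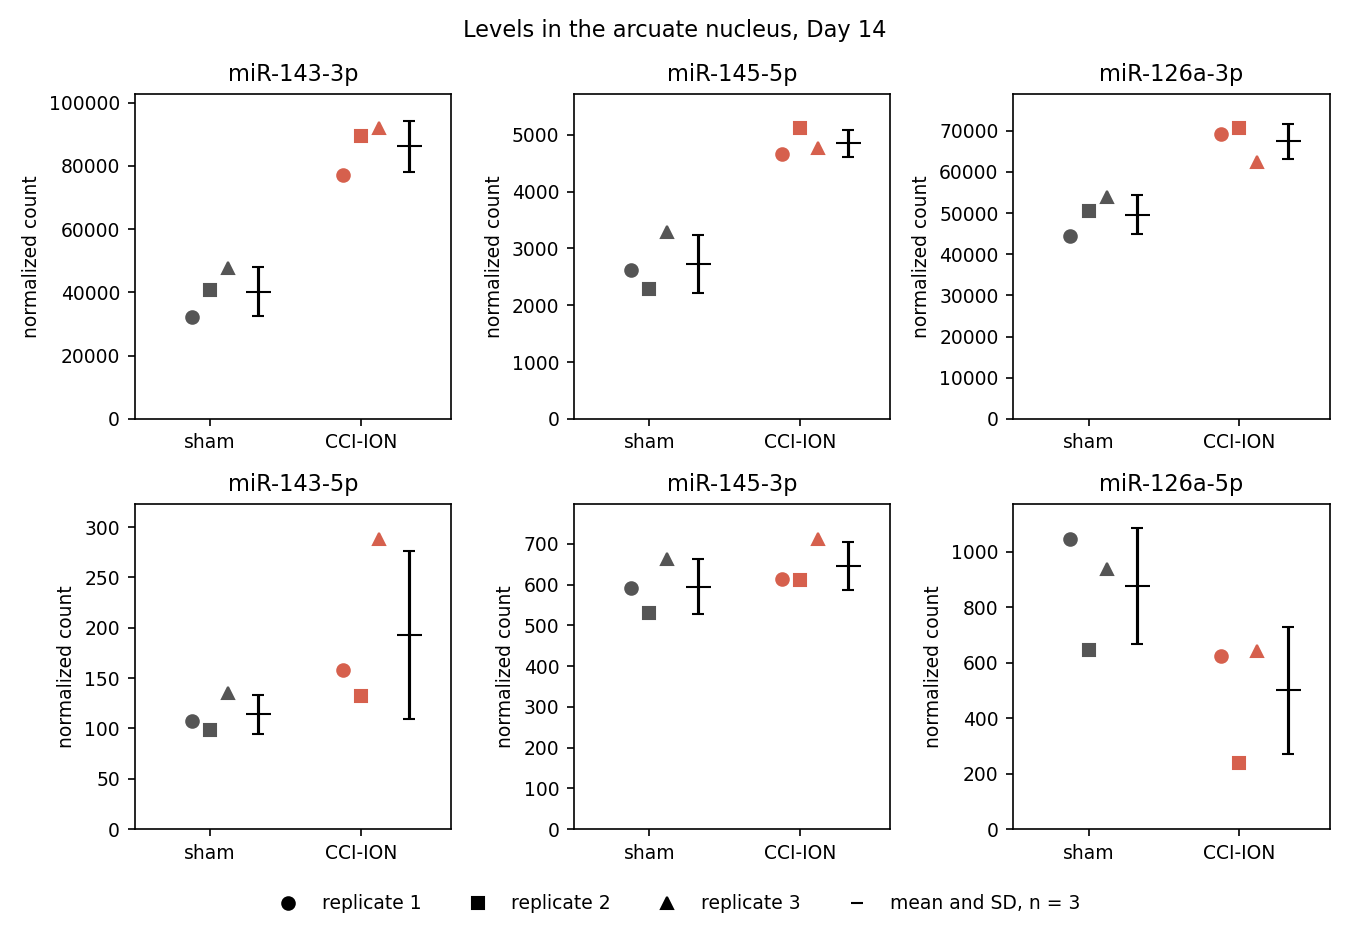
Normalized counts (vertical axes, each from 0) of the 6 members in the sham and CCI-ION libraries, with symbols for replicate numbers and the mean and SD beside them. miR-143-3p, miR-145-5p and miR-126a-3p lie higher in every CCI-ION library than in any sham library, and miR-126a-5p lies lower.

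Of the 6 members, 2 passed the threshold, both higher, where 3.42% of all miRNAs tested did so. CCI-ION libraries lay above all sham libraries for 3 members, as for 19.5% of all miRNAs, and below for 1 member, as for 21.3%. Scaling moved these changes together. Over all miRNAs the median log2 change was -0.01 on the deposited scale, 0.17 with total counts and -0.26 with upper quartiles. miR-143-3p had 1.31 and 0.85 under the latter scalings, and miR-126a-3p had 0.65 and 0.18. The most abundant miRNA, miR-7a-5p, differed by -1.04 on the log2 scale (limma adjusted p = 0.0828), and total counts without it gave a median of 0.02.

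Smooth muscle and endothelium were therefore compared within each library, where the scaling cancels. The sum of the miR-143 and miR-145 arms was 0.781, 0.854 and 0.946 times that of the miR-126a arms in sham replicates 1 to 3, and 1.18, 1.35 and 1.55 times in CCI-ION replicates 1 to 3. In normalized counts, miR-126a was thus ahead in every sham library and the smooth muscle miRNAs in every CCI-ION library. No calibration of counts between miRNAs is given, so here and below only the change of a ratio between groups is read. Which was more abundant in molecules or cells was not tested. The mean ratio went from 0.860 ± 0.0826 to 1.36 ± 0.184 (SD, n = 3 each), a difference of 0.66 on the log2 scale or 1.57-fold. By exact permutation the two-sided p was 0.1, the smallest possible here, and 0.125 after adjustment over 5 ratios. Without any single library the difference was between 0.56 and 0.75 on the log2 scale.

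The sum is mostly miR-143-3p, so the arms were also taken singly. miR-143-3p was at 0.725, 0.807 and 0.887 times miR-126a-3p in sham replicates 1 to 3 and at 1.11, 1.27 and 1.47 times in CCI-ION replicates 1 to 3. As with the sum, the order of the pair in normalized counts turned between the groups. With every miRNA expressed relative to miR-126a-3p of its library, the log2 difference for miR-143-3p was 0.67 (95% interval 0.27 to 1.07, limma adjusted p = 0.0312). On that scale 168 of 554 miRNAs passed the threshold (30.3%), of which 9 were higher (1.62%) and 159 lower (28.7%), and the median of all was -0.46. The error of miR-126a-3p enters each of these tests, so they are not independent of each other. In a single simulated data set this fit made more false calls than the threshold allows. The adjusted p of miR-143-3p was 0.0407 without CCI-ION replicate 1 and between 0.0561 and 0.0999 without any other library (limma). With miR-126a-5p as the reference the log2 difference was 2.02 (adjusted p = 0.0627 from limma), and 11 miRNAs passed higher and 2 lower.

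The change of miR-145-5p relative to miR-126a-3p did not pass the threshold. It was at 0.0588, 0.045 and 0.0609 times miR-126a-3p in sham replicates 1 to 3 and at 0.0673, 0.0724 and 0.0764 times in CCI-ION replicates 1 to 3. The groups did not overlap, which held in this direction for 4.51% of the 554 miRNAs, and in the other direction, that of miR-126a-5p, for 46.2%. The log2 difference of 0.40 (95% interval -0.00305 to 0.81) had a limma adjusted p of 0.109, and it was 0.27 without sham replicate 2. The minor arms miR-143-5p (0.24, adjusted p = 0.638) and miR-145-3p (-0.32, adjusted p = 0.201) did not pass it either (limma). The former was 0.13 without sham replicate 2, 0.36 and 0.50 without CCI-ION replicates 1 and 2, and changed sign to -0.14 without CCI-ION replicate 3, and the latter to 1.03 with miR-126a-5p as the reference.

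Between the cluster partners, miR-143-3p was 12.3, 17.9 and 14.6 times as abundant as miR-145-5p in sham replicates 1 to 3 and 16.5, 17.5 and 19.2 times in CCI-ION replicates 1 to 3. The groups overlapped, since sham replicate 2 lay within the CCI-ION range. The mean was 14.9 ± 2.82 for sham and 17.8 ± 1.38 for CCI-ION libraries (SD, n = 3 each). On the log2 scale the difference was 0.26, beside an SD of 0.27 in sham and 0.11 in CCI-ION libraries (two-sided p = 0.3 by exact permutation).

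**Figure D2:**
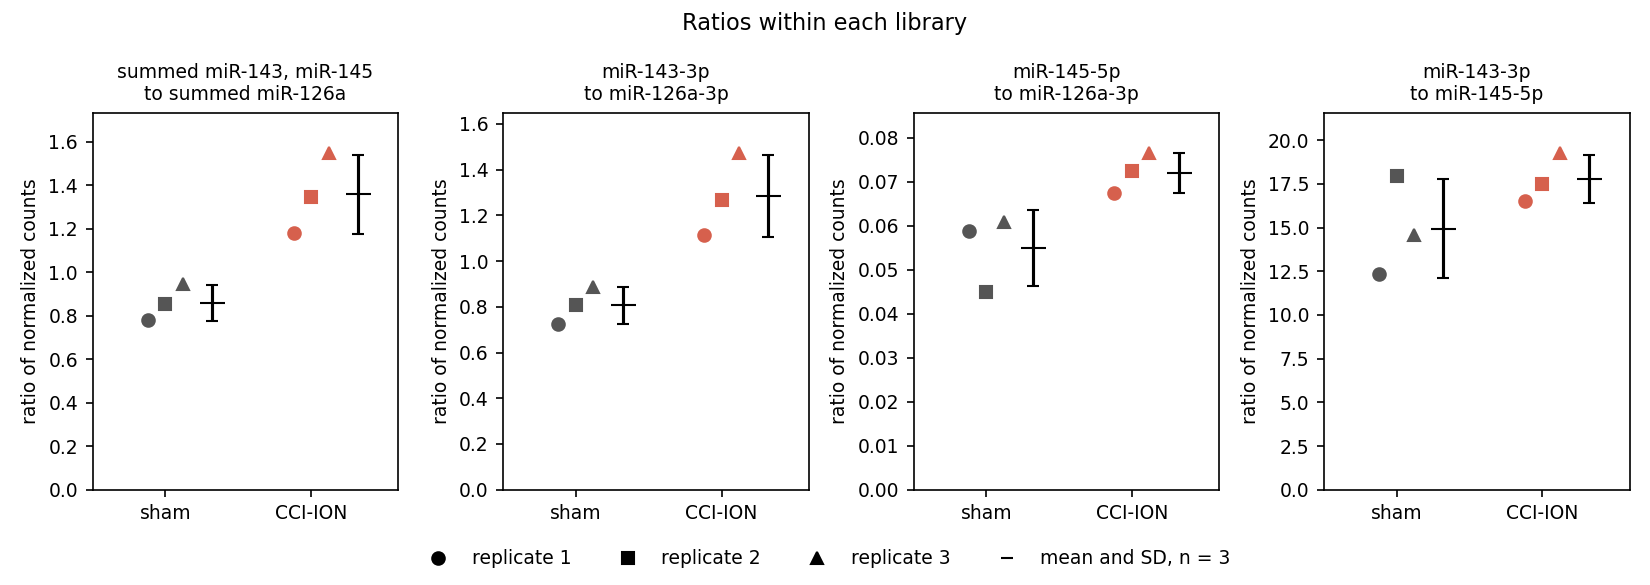
Ratios of normalized counts within each library (vertical axes, from 0) for the summed smooth muscle and endothelial arms, for miR-143-3p and miR-145-5p over miR-126a-3p, and for miR-143-3p over miR-145-5p, with the mean and SD beside the libraries. The first ratio is at most 0.946 in sham and at least 1.18 in CCI-ION libraries, whereas the last overlaps between groups.

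**Figure D3:**
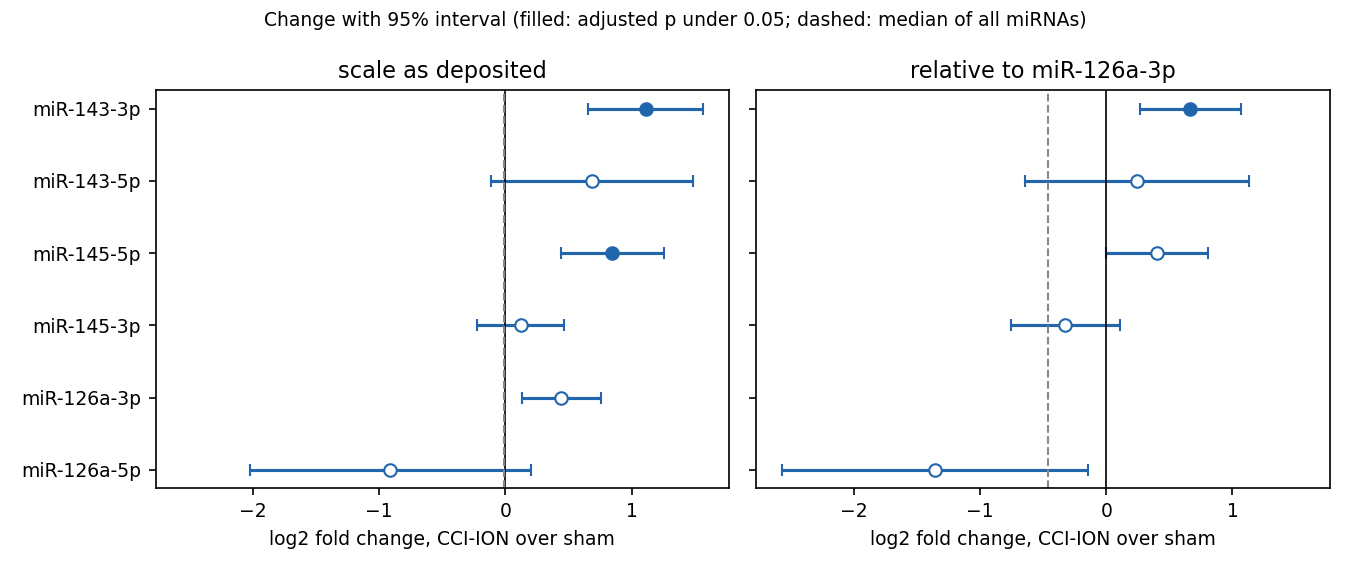
Log2 fold changes of CCI-ION over sham (horizontal axis) with 95% intervals from limma, on the deposited scale (left) and relative to miR-126a-3p (right), filled where the adjusted p was under 0.05. miR-143-3p is filled in both panels (1.11 and 0.67) and miR-145-5p on the left only (0.85). Dashed lines mark the medians of all miRNAs, -0.01 and -0.46.

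The arms of each hairpin come from the same precursor, and their ratio within a library does not depend on the scaling. For miR-145 the 5p arm was 4.42, 4.30 and 4.95 times as abundant as the 3p arm in sham replicates 1 to 3 and 7.60, 8.36 and 6.70 times in CCI-ION replicates 1 to 3. The log2 ratio of 5p to 3p rose by 0.73 (95% interval 0.36 to 1.09, limma adjusted p = 0.035). Among 190 hairpins with both arms, 20 passed the threshold (10.5%). The ratio of 5p to 3p rose in 8 (4.21% of the 190) and fell in 12 (6.32%). The call of miR-145 held without CCI-ION replicate 3 (adjusted p = 0.0423 from limma) and was lost without any other library (0.0532 to 0.132).

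For miR-126a the 3p arm was 42.4, 78.6 and 57.5 times as abundant as the 5p arm in sham replicates 1 to 3, and 111, 297 and 97.2 times in CCI-ION replicates 1 to 3. The groups did not overlap, as for 40.5% of the hairpins, and CCI-ION replicate 2 stood far above the rest. The log2 ratio of 5p to 3p differed by -1.35 (95% interval -2.61 to -0.10), which did not pass (limma adjusted p = 0.133), and by -0.85 without CCI-ION replicate 2. The log2 differences of the 2 arms had opposite signs, as in 78 of the 190 hairpins (41.1%). For miR-143 the 3p arm was 300, 413 and 352 times the 5p arm in sham replicates 1 to 3 and 487, 675 and 318 times in CCI-ION replicates 1 to 3. These groups overlapped (log2 difference of 5p to 3p -0.43, adjusted p = 0.398 from limma). The difference was -0.17 without CCI-ION replicate 2 and -0.71 without CCI-ION replicate 3.

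**Figure D4:**
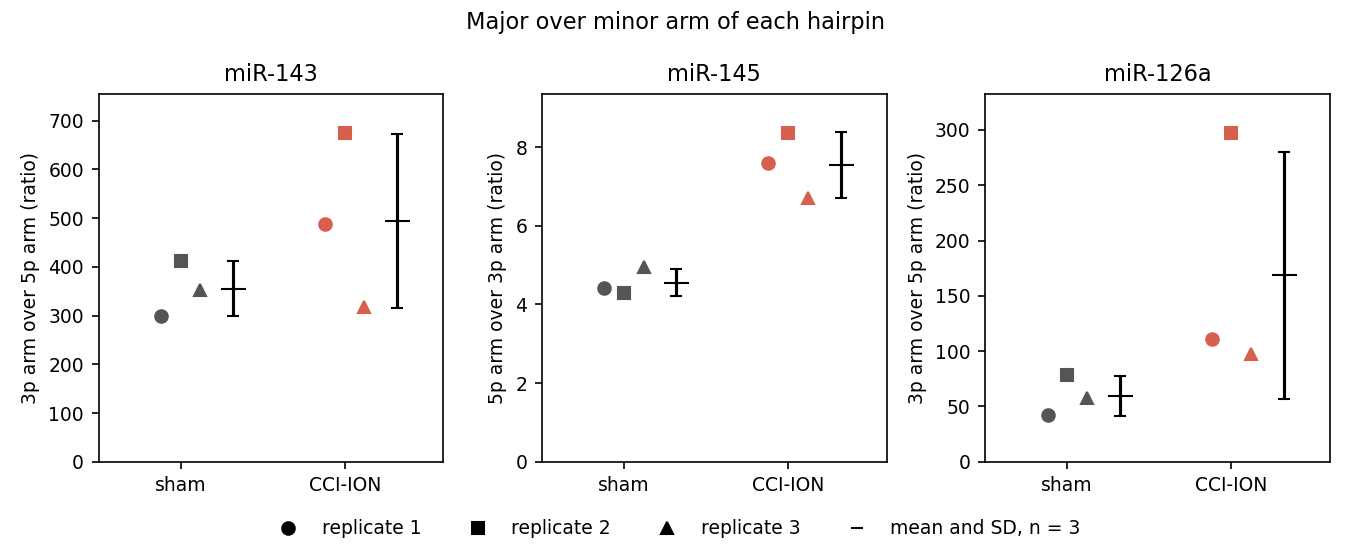
Abundance of the main over the minor arm (ratio, vertical axes, from 0) of miR-143, miR-145 and miR-126a by library, with the mean and SD beside them. The ratio of miR-145 is between 4.30 and 4.95 in sham and between 6.70 and 8.36 in CCI-ION libraries, and that of miR-126a reaches 297 in CCI-ION replicate 2.

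Other miRNAs of mesenchymal and mural cells, the supporting cells of the vessel wall and connective tissue, were listed for 9 of 12 names. Of these, 2 passed the threshold, both higher (3.42% of all miRNAs tested), 0 were lower, and the median log2 fold change was 0.56, beside -0.01 over all miRNAs tested. The 2 were miR-199a-5p (1.66, adjusted p = 0.019) and miR-152-3p (0.61, adjusted p = 0.045), named after their values were seen, and both also on the list the study picked (limma). The most abundant of the list were miR-21-5p, from 5678 ± 935 to 9290.0 ± 4111 normalized counts, and miR-199a-3p, from 5298 ± 315 to 6504 ± 1744 (SD, n = 3 each). Neither passed the threshold (adjusted p = 0.334 and 0.460 from limma). The arms of miR-199a thus differed, and its log2 ratio of 5p to 3p rose by 1.40 (limma adjusted p = 0.00741). Of all hairpins with both arms, 4.21% rose past the threshold. Whether the miRNAs of this list came from mural cells was not tested. The list summed to between 14834 and 17783 normalized counts in sham and between 22293 and 29207 in CCI-ION libraries. Relative to miR-126a-3p its median was 0.12, with 1 of the 9 higher (1.62% of all miRNAs).

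The list for endothelium had 10 of 12 names listed. It summed to between 151602 and 160619 normalized counts in sham and between 177351 and 190430 in CCI-ION libraries, without overlap. Its miRNAs did not all move in one direction, with 6 of 10 log2 differences positive. The list held miR-126a itself and miRNAs such as miR-221 and miR-222 that other cells also make. There 1 miRNA rose and 1 fell, each direction holding 3.42% of all miRNAs tested, and the median log2 fold change was 0.14. Relative to miR-126a-3p the median was -0.39, with 0 higher and 2 lower, where 28.7% of all miRNAs were lower. The rise was that of miR-27a-3p (0.96, adjusted p = 0.045), also on the list the study picked, and the fall that of miR-221-3p (-0.81, adjusted p = 0.0208), both named after their values were seen (limma). The most abundant other than the members, miR-24-3p, had means of 52646 ± 362 for sham and 66087 ± 1263 for CCI-ION libraries (SD, n = 3 each). Its log2 difference was 0.33 (limma adjusted p = 0.0898).

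No miRNA on the lists for striated muscle and blood passed the threshold. Over all 555 miRNAs tested, 183 (33.0%) had an unadjusted p under 0.05 (limma), as had 4 of the 9 mesenchymal and mural and 5 of the 10 endothelial miRNAs listed. The 5 of 7 listed miRNAs of striated muscle summed to between 1028 and 1711 normalized counts in sham and between 597 and 1194 in CCI-ION libraries, and 0 had an unadjusted p under 0.05 (limma). Their log2 differences were positive for 2 of the 5. The most abundant were miR-499-5p, at 1192 ± 369 and 797 ± 289 normalized counts, and miR-133a-3p, at 66.9 ± 14.6 and 71.3 ± 6.38 (SD, n = 3 each). The defining miR-1-3p was at 24.3 ± 7.64 and 12.6 ± 6.91 normalized counts, and miR-206-3p at 22.8 ± 7.53 and 19.1 ± 4.41 (SD, n = 3 each). The 3 of 5 listed erythrocyte miRNAs summed to between 2837 and 3798 in sham and between 2898 and 3660 in CCI-ION libraries, which overlapped, and 1 had an unadjusted p under 0.05 (limma). This was miR-451-5p, the miRNA that defines red cells, named after its value was seen, with a log2 difference of 1.07 (limma adjusted p = 0.0649), and the study also lists it among its raised miRNAs. The other erythrocyte miRNAs had negative differences, -0.08 for miR-486, which makes up most of the sum at 3076 ± 437 and 2904 ± 353 normalized counts (SD, n = 3 each), and -1.12 for the rare miR-144-5p. Of 6 miRNAs of leukocytes and microglia 2 had an unadjusted p under 0.05 (limma), and their sums overlapped between groups (9543 to 11380 and 8664 to 10402).

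The lists for neurons and oligodendrocytes each held 1 miRNA past the threshold, both lower in CCI-ION rats, as were 3.42% of all miRNAs tested. The 5 neuronal miRNAs summed to between 660728 and 885574 normalized counts in sham and to a lower range, between 527723 and 630385, in CCI-ION libraries. Their median log2 fold change was -0.78, with 1 of 5 past the threshold, miR-124-3p (-0.78, adjusted p = 0.0435 from limma), named after its value was seen. Of the 2 most abundant, miR-128-3p differed by -0.91 on the log2 scale, but miR-129-5p went the other way, by 0.45, from 206605 ± 5981 to 283191 ± 25777 normalized counts (SD, n = 3 each). Neither passed the threshold (adjusted p = 0.0597 and 0.0762 from limma), and for both the groups did not overlap. An unadjusted p under 0.05 was found for 4 of the 5 neuronal and 2 of the 3 oligodendrocyte miRNAs (limma). The 3 oligodendrocyte miRNAs summed to between 9165 and 14031 in sham and between 7133 and 7612 in CCI-ION libraries. Of these miR-338-3p passed the threshold (-1.27, limma adjusted p = 0.019), named after its value was seen, and the rare miR-219a-5p was listed at 0 in 4 libraries, 1 of them sham. The 9 miRNAs of pituitary and epithelium had a median of 0.89, with sums from 16156 to 23034 in sham and from 20070 to 51002 in CCI-ION libraries, which overlapped. In the limma fit 3 reached an unadjusted p under 0.05 and 0 an adjusted one. The 6 of choroid plexus and ependyma had a median of 0.27, with 0 past the threshold and 1 at an unadjusted p under 0.05 (limma), and with overlapping sums from 66648 to 90999 and from 85712 to 109963. The part of these differences in the changes of miR-143, miR-145 and miR-126a was not tested.

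Over the 6 libraries, the miRNA most like miR-143-3p in its log2 values was miR-378a-3p (Pearson's r = 0.992), ahead of miR-322-3p (0.988), miR-30c-1-3p (0.982), miR-378b (0.979) and miR-199a-5p (0.969), among 358 with a mean of at least 100. miR-145-5p was most like miR-30e-3p (0.966) and then miR-199a-5p (0.956), miR-30a-3p (0.948), miR-378a-3p (0.948) and miR-192-5p (0.947). Its r with its cluster partner miR-143-3p was 0.946. miR-126a-3p was most like miR-344b-1-3p (0.985), miR-425-5p, miR-676, miR-674-3p and miR-30c-1-3p, with r of 0.965 or more. Between miR-126a-3p and miR-143-3p r was 0.948, as high as between the cluster partners, and between the arms of miR-126a it was -0.746. These correlations describe 6 libraries that fall into 2 groups, share their scaling within a library and were chosen as the highest, so each includes the difference between groups. miR-378a-3p and miR-378b have similar sequences and may share reads, so their values are uncertain.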

How the data were processed

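Small RNA libraries of the ARC (3 sham, 3 CCI-ION) were grouped by the titles in the labels. For each library the authors deposited 1 signal value per mature miRNA. The submitters' processing notes name cutadapt 1.14, Bowtie 1.1.1 and genome build rn6; counting, annotation and normalization are not given in the sources used here. All values were whole multiples (within 0.01) of a step per library, with the smallest value above 0 worth 5 steps, so they were taken as read counts over size factors and called normalized counts. On this inferred read scale depth was 8628309 to 14313839 reads, and counting errors cover sampling of reads only.

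log2(normalized count + 1) was compared with limma 3.58.1 in R 4.3.3, two-sided, Benjamini-Hochberg adjusted, keeping every miRNA whose mean reached 1 (7 of 562 were left out). The same fit was made on log2 differences to miR-126a-3p of the same library and on 5p to 3p log2 ratios. Members' ratios used exact permutation tests (scipy 1.17.1) over 5 ratios. Fits were tested on a single simulated data set with a fixed spread between libraries, and no further draws were made. There the fit relative to miR-126a-3p made more false calls and recovered fewer changes than the others. Named miRNAs are the members, the 2 most abundant of a marker list where one is detailed, the most abundant miRNA and the 5 most correlated with each main arm. Other miRNAs of the marker lists given with values were named after these were seen. They are those past the threshold, the defining miR-1-3p, miR-206-3p and miR-451-5p, and the rare miR-144-5p and miR-219a-5p. The members, lists and tests were chosen with earlier results of these data known.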

Additional observations from a re-analysis of the deposited data

How the results depend on the processing

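The number of miRNAs past the threshold, 38, was 88 with upper-quartile scaling (9 higher, 79 lower), 63 with a mean of at least 10, 96 with at least 10 in every library and 88 with an intensity trend. Total counts gave 51 calls (42 higher, 9 lower) and scaling without the most abundant miRNA 49 (30 higher, 19 lower). With a library left out it was between 7 and 43. Relative to miR-126a-3p the count of 168 (9 higher, 159 lower) was 13 with miR-126a-5p as the reference (11 higher, 2 lower). It was 52 to 136 with a library left out, and the 20 hairpins with a changed arm ratio became 3 to 22. Stricter filters test fewer miRNAs and the fits without a library rest on 5; otherwise the cause was not tested.

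With the replicate number as a block, 3 miRNAs passed the threshold, 0 relative to miR-126a-3p and 0 hairpins (limma), with 154, 222 and 58 at an unadjusted p under 0.05. The ratio of smooth muscle to endothelium was 0.66 on the log2 scale with the block (exact sign permutation, p = 0.25, the smallest that 3 pairs allow). Deviations of same-numbered libraries from their group means correlated at -0.03, 0.19 and -0.01. Those of differently numbered libraries correlated at between -0.13 and 0.13. With 3 libraries per group these values cannot decide whether the numbers mark a pairing. With only the main arms the ratio differed by 0.65, and by 0.92 with the same weight for each arm.

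miR-143-3p had log2 fold changes from 0.85 to 1.31 over all alternatives and passed the threshold in 8 of 9 that kept every library, miR-145-5p in 7 of 9. With the block miR-143-3p had an adjusted p of 0.0891 and miR-145-5p of 0.125 (limma), and the latter was also lost with upper quartiles. miR-126a-3p passed it with the intensity trend only (adjusted p = 0.0350 from limma). Changes of sign were -0.14 for miR-145-3p with upper quartiles, and relative to miR-126a-3p -0.14 for miR-143-5p without CCI-ION replicate 3 (-0.14 to 0.50 with each library left out) and 1.03 for miR-145-3p with miR-126a-5p as the reference. Of the other values of single members and hairpins under alternatives, 27 lost the call, 3 gained one and 151 kept their sign and their side of the threshold. The count tests edgeR and DESeq2, planned for whole reads, were not run because the deposited values are normalized and reads behind them are only inferred, and a ratio without miR-126b equals the one given. Inferred reads were fewest for miR-143-5p and miR-126a-5p, at lowest counts of 94 and 195. Their counting errors were at most 10.3% and 7.16%. Across CCI-ION libraries they ranged more widely, from 133 to 289 and from 237 to 643 normalized counts.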
